A study of Mus musculus with 4 samples.

Results

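Cadherins and protocadherins were taken as every feature whose symbol begins with Cdh or Pcdh and a number, or with Pcdha, Pcdhb or Pcdhg, which gave 90 of the 19465 features measured. They fell into 34 genes outside the protocadherin clusters and 56 features of the alpha (14), beta (21) and gamma (21) protocadherin clusters, with Pcdha11 listed under 2 Ensembl identifiers. The data were 4 coronal brain sections of wild-type male C57BL/6J pups at postnatal day 21, fixed in formalin and embedded in paraffin, each covering about one hemisphere. The dams had eaten a diet with 2 mg/kg folic acid (MF, 2 sections) or 20 mg/kg folic acid (HF, 2 sections) from before mating through pregnancy and lactation. RNA was read with probe pairs on Visium slides, on which each barcoded spot collects the probes above a small patch of tissue holding several cells, and was counted as unique molecular identifiers (UMIs). The sources used here do not say whether the pups of one diet came from separate litters, so every p-value below measures the spread between sections only.

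Classical cadherins are calcium-dependent adhesion molecules that bind the same or a closely related cadherin on a neighbouring cell and are tied to actin through catenins. The nervous system uses many of them, with combinations that differ between nuclei, layers and cell types. Protocadherins lack the catenin-binding tail. The clustered ones are made from many tandem first exons, each with its own promoter. In the alpha and gamma clusters these are spliced to shared last exons, and most neurons choose few of them each, which gives sister branches of one cell a common surface identity.

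The sections held 90098381 UMIs in MF1, 42423648 in MF2, 34983708 in HF1 and 42507273 in HF2, so MF1 was the deepest. After removal of spots below 500 UMIs or 250 genes, 13452 spots remained, between 3197 and 3598 per section. Areas were drawn by clustering the spots on other genes, with all 90 cadherins and protocadherins left out, and each was named from markers listed beforehand. This gave 18 named areas with 9605 spots, 71.4% of those kept. They were cortical layers L2-3, L4, L5 and L6, olfactory and piriform cortex (OLF), the hippocampal fields CA1 and CA2-3, the dentate gyrus (DG), hippocampal spots led by Ndnf, Reln and Thbs4 (matrix), the thalamic reticular (RT), relay and midline areas, hypothalamus (HY), striatum (STR), white matter (WM), meninges (MEN), medial habenula (MHb) and choroid plexus (ChP). The leading genes of the areas used most below were Calb1 and Lamp5 in L2-3, Rorb and Rspo1 in L4, Syt6 and Rprm in L6, Homer3 and Ptgs2 in CA2-3, C1ql2, Dsp and Prox1 in DG, Dlk1 and Baiap3 in HY, Mal in WM, Col1a1 and Col3a1 in MEN, and Ttr and Folr1 in ChP. The smallest areas were ChP with 10 to 13 spots per section and DG with 18 to 34. RT held 107 spots in HF2 against 45 to 48 in the others. Areas and genes come from the same spots, and no p-value covers how the areas were drawn. Levels are given as CPM, the UMIs of a gene per 1000000 UMIs of that area and section. A spot mixes cells, so fewer cells of a type and less RNA per cell cannot be told apart. Probe counts are not scaled by length, so levels were set side by side between areas and sections, never between genes.

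The first question was which members mark which area. Of 82 members with enough counts for this test, 12 marked an area, that is 14.6%, against 22.2% of the 12495 genes tested. A gene marked an area when it was highest there in all 4 sections, at least 2-fold above the mean of the other areas, and past an adjusted p of 0.05 (edgeR quasi-likelihood test, Benjamini-Hochberg over all genes). One fit took all areas of the 4 sections, with section as a block. Its SE and p-values pool the spread over all areas and treat the areas of a section as independent. They therefore do not rest on the 4 values of an area alone. Without the demand on every section, 29 members (35.4%) were at least 2-fold higher in 1 or more areas, against 39.6% of all genes. The same area was highest in all 4 sections for 14 members (17.1%), against 30.4% of all genes. By area, 9 members were at least 2-fold higher in DG (11% of those tested, against 5.2% of all genes) and 3 in ChP (3.66%, against 15.7%). The overall shares were near or below the background, and what follows is a description of where each member was high rather than of an excess. Outside the clusters 23 of 30 tested members were at least 2-fold higher in some area, and within the clusters 6 of 52. The clustered genes also had fewer UMIs, with a median of 2784 over the 4 sections against 5891 for the others, and the part of depth in the difference was not tested. By family, the counts were 11 of 13 type II cadherins, 3 of 4 type I cadherins, 2 of 2 tested atypical cadherins, 4 of 5 delta-2 protocadherins, 2 of 4 delta-1 protocadherins, 3 of 21 gamma, 3 of 19 beta and 0 of 12 alpha genes.

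**Figure D1:**
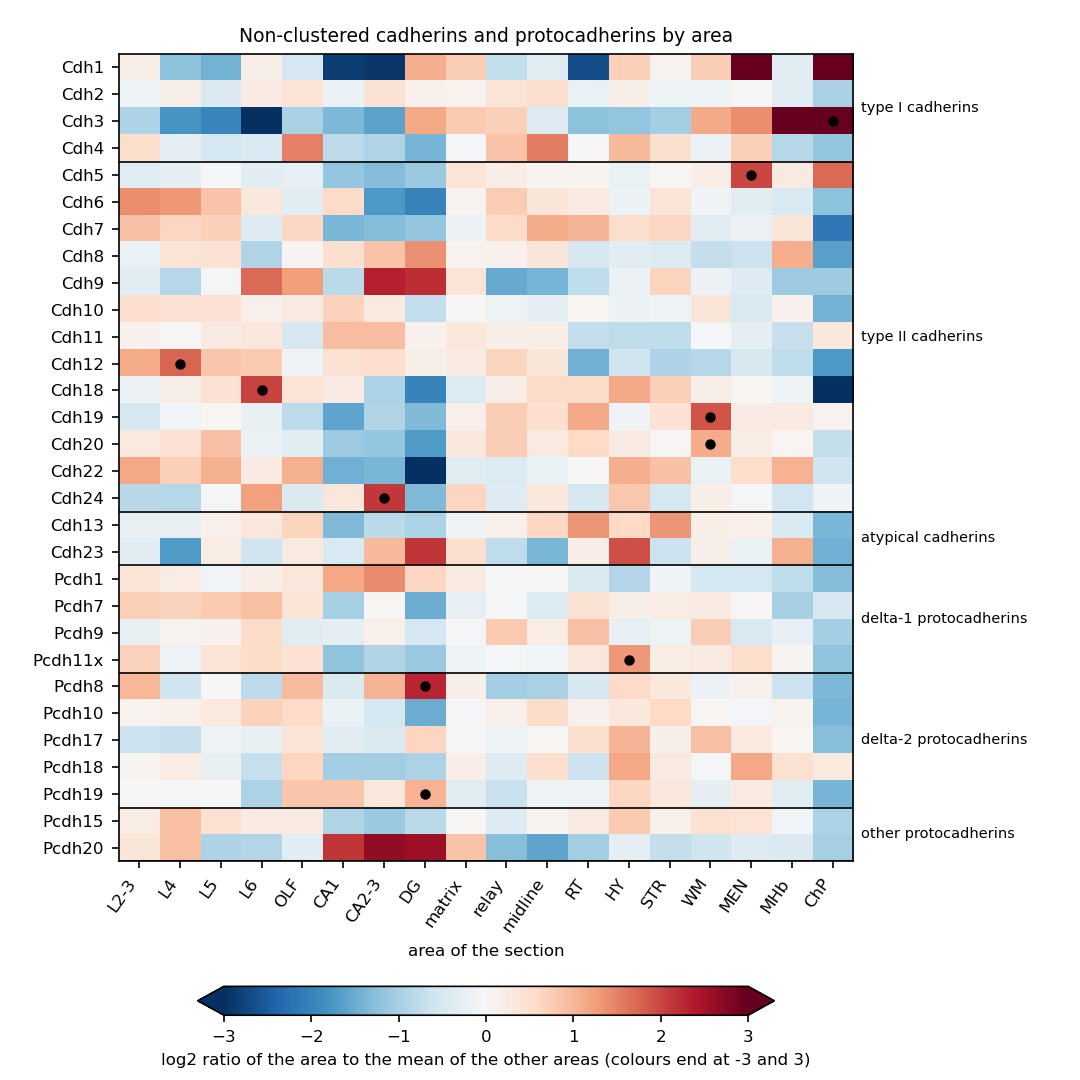
Log2 ratio of each of the 30 tested cadherins and protocadherins outside the clusters (rows) in each of the 18 areas (columns) to the mean of the other areas, from the fit over 4 sections. The colour scale runs from -3 (lower) to 3 (higher), dots are the areas a gene marks, and the cells past the top of the scale are Cdh3 in ChP and MHb and Cdh1 in MEN and ChP.

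The type II cadherins, which form the largest group of classical cadherins in the brain, gave 6 of the 12 marks. Cdh12, a type II cadherin of neurons, marked L4. Its level in L4 was 66.6 CPM in MF1, 65.2 in MF2, 66.2 in HF1 and 46.8 in HF2. In L2-3, the next area, it was 42.5, 45.6, 41.2 and 35.5 CPM in the same order. L4 lay above L2-3 in each section, by 1.48 times on the means, although HF2 stood apart from the other 3 sections in L4. The log2 ratio of L4 to the mean of the other areas was 1.75 ± 0.09 (SE, n = 4 sections; edgeR adjusted p = 1.92e-30), and the lowest mean was 6.21 CPM in ChP. The 300 bases around its RefSeq start, 250 before and 50 after, lie at chr15:21111202-21111501 (GRCm38.p6, plus strand). This is inside the annotated span of Cdh12, 20449265 to 21589533, and not at its 5' end. The window is printed because Cdh12 marked L4 under every setting tried.
Cdh12: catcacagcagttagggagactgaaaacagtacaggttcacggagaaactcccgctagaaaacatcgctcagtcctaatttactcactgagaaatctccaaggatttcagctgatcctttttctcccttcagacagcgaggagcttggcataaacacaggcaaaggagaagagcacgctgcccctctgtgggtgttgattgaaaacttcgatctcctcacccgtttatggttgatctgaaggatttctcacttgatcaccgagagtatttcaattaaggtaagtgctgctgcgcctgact
This window had 46.7% G and C, 9 CpG pairs and no match to any of the motifs searched here.

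Cdh18, a close relative, marked L6, the deepest cortical layer. It was at 14.3 CPM in MF1, 21.0 in MF2, 16.8 in HF1 and 30.9 in HF2 there. In HY, the second area, it was at 11.7, 10.6, 14.2 and 14.6 CPM. The spread in L6 was wide, with HF2 above the others by more than MF1 differed from MF2, and L6 was still highest in every section. The log2 ratio was 2.03 ± 0.19 (SE, n = 4; edgeR adjusted p = 2.57e-15), and Cdh18 was not among the marks with spots thinned to 5000 UMIs or at the coarser clustering. The RefSeq start of Cdh18 lies 1 gene further along the same chromosome, again inside the annotated span of the gene (22549022 to 23474418). Its window at chr15:23036213-23036512 (plus strand) is shown beside that of its neighbour, with the CCAAT motif at base -62 in capitals.
Cdh18: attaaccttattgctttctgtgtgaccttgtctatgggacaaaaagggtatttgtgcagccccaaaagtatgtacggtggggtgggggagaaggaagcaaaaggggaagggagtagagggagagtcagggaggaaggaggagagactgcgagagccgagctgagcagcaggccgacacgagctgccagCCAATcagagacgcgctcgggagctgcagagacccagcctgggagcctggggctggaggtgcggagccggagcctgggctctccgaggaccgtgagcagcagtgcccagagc
This window was richer in G and C than that of Cdh12, at 60.3%, with 12 CpG pairs.

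Cdh6, Cdh9, Cdh10, Cdh12 and Cdh18 lie in this order on chromosome 15 with 0 other protein-coding genes between neighbours, across gaps of 3.555, 1.962, 1.435 and 0.959 Mb (GRCm38). Their highest areas were all cortical or hippocampal but differed: L2-3 for Cdh6, CA2-3 for Cdh9, CA1 for Cdh10, L4 for Cdh12 and L6 for Cdh18. Cdh6 was at 81.2, 78.9, 79.7 and 72.4 CPM in L2-3 and at 74.7, 70.4, 85.0 and 65.6 in L4. The values of both layers overlapped, so Cdh6 was high in both and marked neither. Cdh9, known at synapses of mossy fibres on CA3 neurons, was at 64.7, 64.4, 94.5 and 93.7 CPM in CA2-3 and 91.8, 60.7, 70.7 and 88.3 in DG, the cells that send those fibres. It was also at 51.9, 52.0, 63.4 and 61.1 CPM in L6. The log2 ratios were 2.34 ± 0.12 in CA2-3, 2.21 in DG, 1.70 in L6 and 1.26 in OLF, so Cdh9 was high in all 4 with no single top area. Cdh6, Cdh9 and the other members named as shared between areas were chosen after their values were seen.

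Cdh24, a type II cadherin with few described roles, marked CA2-3. It was at 46.6 CPM in MF1, 45.8 in MF2, 63.0 in HF1 and 68.1 in HF2. L6 followed with 33.8, 33.8, 54.1 and 20.9 CPM, and DG, the field beside CA2-3, had the lowest mean of all areas, 6.90 CPM. Cdh24 thus separated the neighbouring hippocampal fields that Cdh9 joined. The log2 ratio in CA2-3 was 2.12 ± 0.14 (SE, n = 4; edgeR adjusted p = 1.05e-24). With spots thinned to 5000 UMIs it was 1.67, and CA2-3 was no longer highest in every section. Its window at chr14:54641315-54641614 (minus strand) is printed as the one richest in G and C among the marking members with a window, 73.3% with 30 CpG pairs, and its capitals are GC-box letters at bases -103 and -16, the second on the other strand.
Cdh24: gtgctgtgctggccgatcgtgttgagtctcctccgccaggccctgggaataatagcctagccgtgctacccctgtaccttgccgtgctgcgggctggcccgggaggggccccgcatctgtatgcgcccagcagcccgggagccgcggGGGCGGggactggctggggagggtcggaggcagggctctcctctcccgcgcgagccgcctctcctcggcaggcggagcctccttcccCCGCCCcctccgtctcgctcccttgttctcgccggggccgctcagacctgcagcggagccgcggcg

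Cdh19 and Cdh20 both marked white matter, where oligodendrocytes are the main cells. Cdh19, known from Schwann cells and the oligodendrocyte lineage, was at 37.6 CPM in MF1, 41.4 in MF2, 44.1 in HF1 and 43.5 in HF2 in WM. RT, which is crossed by fibre bundles, came second with 28.1, 31.0, 31.0 and 20.2 CPM. Every WM value lay above every RT value, and the log2 ratio was 1.88 ± 0.10 (SE, n = 4; edgeR adjusted p = 1.11e-30). It was 1.69 with spots thinned to 5000 UMIs, where WM was not highest in every section. Cdh20 was at 52.7, 61.1, 59.5 and 60.0 CPM in WM against 50.1, 53.9, 45.2 and 47.5 in L5. Its lead over L5 was 1.19 times, smaller than for Cdh19, and the log2 ratio was 1.11 ± 0.07 (edgeR adjusted p = 2.33e-25). With interior spots alone this ratio was 0.95, under 2-fold, and with spots thinned it was 1.02 without WM being highest in every section. Of the 15 oligodendrocyte genes listed, 14 marked the same area, but the same list had been used to name that area. Cdh7 lies next to Cdh19 on chromosome 1 with 0 protein-coding genes between them, and was highest in midline thalamus instead. The window of Cdh20 at chr1:104768270-104768569 (plus strand) is shown because CCAAT was found on both strands at the same place, bases -96 and -93, and the overlapping letters are in capitals.
Cdh20: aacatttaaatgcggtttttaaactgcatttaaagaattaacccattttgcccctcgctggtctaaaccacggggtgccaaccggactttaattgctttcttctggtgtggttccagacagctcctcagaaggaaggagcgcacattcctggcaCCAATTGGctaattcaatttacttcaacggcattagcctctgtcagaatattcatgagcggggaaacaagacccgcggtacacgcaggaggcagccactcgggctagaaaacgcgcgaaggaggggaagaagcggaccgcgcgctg
It had 50.7% G and C and 18 CpG pairs.

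Cdh5, the cadherin of endothelial junctions, marked the meninges. It was at 61.6 CPM in MF1, 69.9 in MF2, 92.4 in HF1 and 68.6 in HF2 in MEN, and at 42.2, 66.2, 38.6 and 46.5 CPM in ChP, the other vessel-rich area. The lowest mean was 6.81 CPM in CA2-3. The log2 ratio in MEN was 2.01 ± 0.10 (SE, n = 4; edgeR adjusted p = 6.03e-33), and 5 of the 9 vessel genes tested marked MEN with it. With spots thinned the ratio was 2.00, and MEN was not highest in every section.

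Among type I cadherins, Cdh3 (P-cadherin, an epithelial cadherin) marked the choroid plexus, the epithelium that makes cerebrospinal fluid. It was at 68.6 CPM in MF1, 62.3 in MF2, 99.7 in HF1 and 99.9 in HF2 in ChP, from 39, 16, 31 and 43 UMIs. The medial habenula, which borders the ventricle, followed with 13.9, 22.1, 30.5 and 36.1 CPM, so ChP was 3.22 times higher on the means (edgeR adjusted p = 1.63e-39 against the mean of the other areas). Cdh3 had 0 UMIs in L6 in all sections. The 13 choroid plexus genes tested all marked ChP, but the same list had been used to name ChP. Their summed level in MHb was 6765, 8014, 12330 and 14559 CPM, higher in both HF sections, so these markers were present in the habenular spots. Their part in the habenular level of Cdh3 was not tested. Cdh1 (E-cadherin), 46.1 kb from Cdh3 on chromosome 8, was highest in the meninges, with 17.1, 11.5, 17.0 and 6.40 CPM in MEN and 5.28, 11.7, 3.22 and 0 in ChP. HF2 was lowest in both areas, and in MF2 the values of both areas were alike. Cdh4 (R-cadherin) was shared by midline thalamus (78.9, 80.8, 63.1 and 44.5 CPM) and OLF (63.9, 70.7, 88.6 and 65.4 CPM). These areas overlapped, and the log2 ratios were 1.53 and 1.52. Cdh2 (N-cadherin), the general cadherin of neural cells and synapses, was not 2-fold higher in any area.

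**Figure D2:**
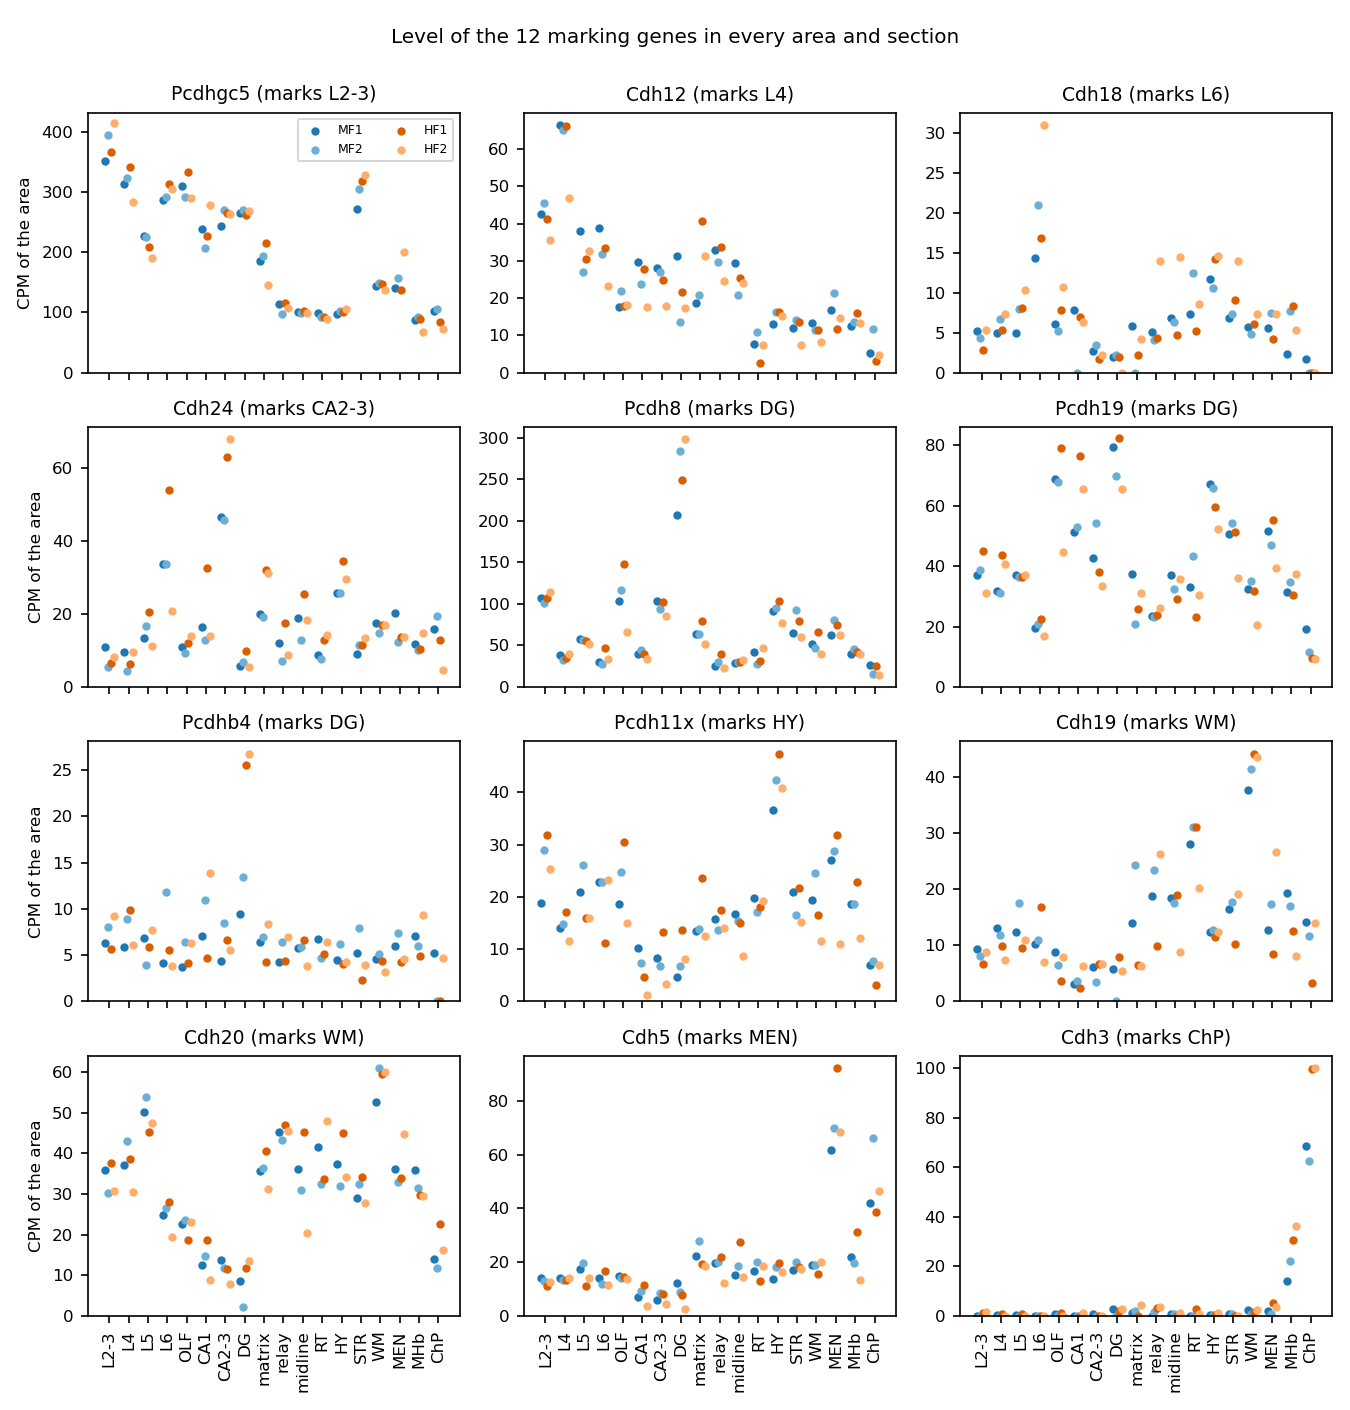
Level in CPM (vertical axes) of the 12 members that marked an area, in each of the 18 areas (horizontal axes) and each of the 4 sections (points, coloured by diet). In every panel the points of the marked area are the highest of their own section, as with Pcdh8 in DG, at 206 to 298 CPM.

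The delta-2 protocadherins, which act in adhesion and actin remodelling and are linked to epilepsy and autism, gave 2 marks, both in the dentate gyrus. Pcdh8 (arcadlin), which is induced by neuronal activity and takes part in removing N-cadherin from synapses, was at 206 CPM in MF1, 283 in MF2, 249 in HF1 and 298 in HF2 in DG. OLF came second with 103, 116, 149 and 66.6 CPM. No OLF value reached any DG value, DG was 2.39 times higher on the means, and the log2 ratio was 2.28 ± 0.09 (SE, n = 4; edgeR adjusted p = 7.88e-39). Pcdh8 is one of 2 members with a TATA letter run in the window, which is shown for this reason (chr14:79771263-79771562, minus strand), with TATAAA at base -30 and CCAAT on the other strand at -68 in capitals.
Pcdh8: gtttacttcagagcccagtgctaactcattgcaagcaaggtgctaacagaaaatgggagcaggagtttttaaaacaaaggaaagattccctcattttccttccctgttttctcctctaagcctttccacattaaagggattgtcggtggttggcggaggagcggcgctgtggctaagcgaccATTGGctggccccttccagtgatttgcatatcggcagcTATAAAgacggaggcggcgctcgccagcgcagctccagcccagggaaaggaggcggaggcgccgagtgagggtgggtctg
Pcdh19, an X-linked protocadherin in which variants cause epilepsy in heterozygous females, also marked DG, by less. It was at 79.5, 69.7, 82.4 and 65.6 CPM in DG, at 68.8, 67.9, 79.0 and 44.8 in OLF and at 51.5, 53.1, 76.6 and 65.5 in CA1. DG was the highest area in each section but the gaps to OLF and CA1 were within the spread between sections, and the log2 ratio to all other areas was 1.04 ± 0.12 (SE, n = 4; edgeR adjusted p = 5.25e-12). The ratio was 0.37 with spots thinned to 5000 UMIs and 0.88 with members left in the clustering, and Pcdh19 marked DG in neither. Its window lies at chrX:133688944-133689243 (minus strand), with CCAAT at -65 and the GC-box letters at -100, both on the other strand, and no TATAAA.
Pcdh19: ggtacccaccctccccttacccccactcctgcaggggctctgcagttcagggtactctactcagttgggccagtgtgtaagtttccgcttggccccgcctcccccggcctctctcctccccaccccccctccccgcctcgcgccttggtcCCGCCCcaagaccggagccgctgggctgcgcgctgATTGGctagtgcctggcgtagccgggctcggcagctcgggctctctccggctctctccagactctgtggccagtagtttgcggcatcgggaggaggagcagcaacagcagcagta
Of the other delta-2 members, Pcdh17 was higher in the hypothalamus, at 174, 176, 181 and 147 CPM (log2 ratio 1.03). Pcdh18 was higher in the hypothalamus and the meninges alike (log2 ratio 1.16 in each), and Pcdh10 was not 2-fold higher anywhere.

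Among delta-1 protocadherins, Pcdh11x, X-linked like Pcdh19, marked the hypothalamus, with 36.6, 42.3, 47.4 and 40.9 CPM against 18.8, 29.0, 31.9 and 25.3 in L2-3. HY was above L2-3 in every section, with a log2 ratio of 1.31 ± 0.08 (SE, n = 4; edgeR adjusted p = 2.17e-26), and 0.92 with interior spots alone. Pcdh1 was higher in the pyramidal fields, at 345, 398, 399 and 417 CPM in CA2-3 and 301, 436, 309 and 339 in CA1, where MF2 had the reverse order of the other sections. Pcdh9 had the same highest area, RT, in every section without passing 2-fold. Pcdh20, a protocadherin outside these groups, was high in the CA fields and the dentate gyrus. It was at 164, 186, 244 and 249 CPM in CA2-3, at 183, 198, 228 and 286 in DG and at 122, 163, 190 and 161 in CA1. Log2 ratios were 2.65 ± 0.09 in CA2-3 (edgeR adjusted p = 1.24e-43), 2.56 in DG and 2.14 in CA1, and the values of CA2-3 and DG overlapped. In the hippocampal matrix it was lower, at 65.5, 85.1, 57.8 and 81.1 CPM, and not 2-fold above the other areas. Shared patterns were also seen for Cdh8 in DG (221, 238, 196 and 253 CPM) and MHb (196, 196, 204 and 215), and Cdh13, the atypical cadherin held by a lipid anchor, in STR (159, 191, 221 and 220) and RT (168, 156, 202 and 225). Cdh7 was shared by midline thalamus and RT (log2 ratios 1.12 and 1.01) and Cdh23, a cadherin of hair cell tip links, by DG, HY and MHb (2.14, 1.94 and 1.06). Cdh22 was spread over 5 areas from HY to OLF, with log2 ratios of 1.05 to 1.15, and was at or near 0 in DG, at 0.947, 0, 3.93 and 2.68 CPM. Members outside the clusters that were tested and not 2-fold higher in any area were Cdh2, Cdh10, Cdh11, Pcdh7, Pcdh9, Pcdh10 and Pcdh15. Cdh16, Cdh17, Cdh26 and Pcdh12 had too few counts for the area test, with 1 UMI of Cdh16 in all 4 sections.

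**Figure D3:**
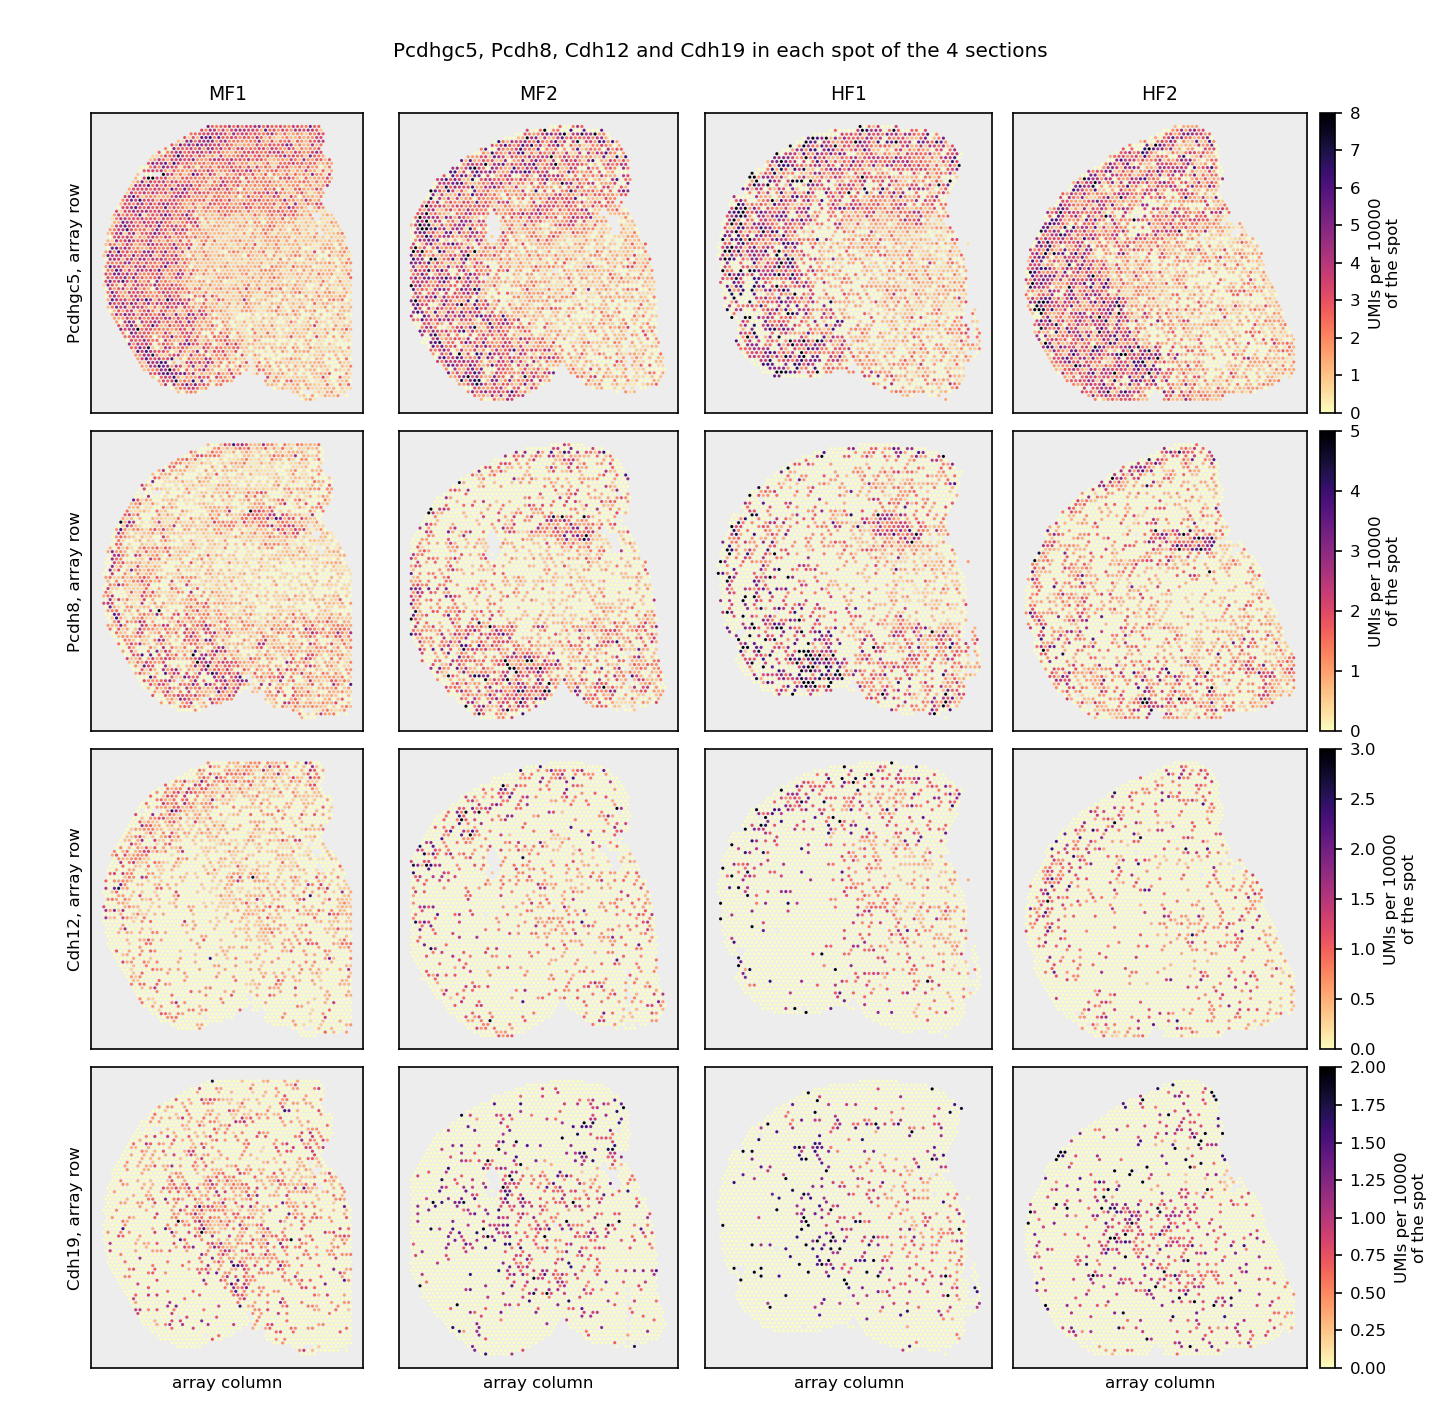
UMIs of Pcdhgc5, Pcdh8, Cdh12 and Cdh19 per 10000 UMIs of the spot (colour) in each spot of the 4 sections (columns), drawn at the array positions of the spots. Pcdhgc5 fills the outer part of the section, Pcdh8 is high in the dentate gyrus and in a ventral patch, Cdh12 is densest in a band of the upper cortex, and Cdh19 is densest in the middle of the section.

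The clustered protocadherins lie on chromosome 18, with the alpha genes at 36930184 to 37187661, the beta genes at 37264938 to 37524479 and the gamma genes at 37661793 to 37841873 (GRCm38). The alpha and gamma genes share last exons within their cluster, and the sources used here do not say which exon each probe pair reads, so the values of single alpha and gamma genes are uncertain. Of 52 clustered genes tested, 2 marked an area. Pcdhgc5, a C-type gamma gene, marked L2-3. It was at 352 CPM in MF1, 395 in MF2, 367 in HF1 and 415 in HF2 there, at 313, 324, 342 and 283 in L4, and at 99.3, 93.0, 93.1 and 88.9 in RT. Cortex and striatum were high and thalamus, hypothalamus and habenula were low, and the lowest mean was 84.0 CPM in MHb. The log2 ratio in L2-3 was 1.16 ± 0.05 (SE, n = 4; edgeR adjusted p = 2.46e-36). Its Moran's I, the authors' score for how far neighbouring spots have like values, was 0.30 on average and the highest of all 90 members. For the other clustered genes the score was low, with a median of 0.0052 over the clustered genes against 0.0743 over the rest, and the score falls with sparse counts as well as with even spread. Pcdhb4, a beta gene, marked DG at 9.47, 13.5, 25.5 and 26.8 CPM from 10, 6, 13 and 20 UMIs. CA1 followed with 4.64 to 13.8 CPM, and DG was 2.06 times higher on the means. The log2 ratio was 1.61 ± 0.25 (SE, n = 4; edgeR adjusted p = 4.52e-08). The call of Pcdhb4 thus rests on few UMIs in each section, and it was not among the marks with spots thinned.

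Pcdhgc5 made up much of the difference between areas in its cluster. The 21 gamma genes summed to 815 ± 39.1 CPM (SD, n = 4) in L2-3 and 464 ± 41.3 in RT. Without Pcdhgc5 the sums were 433 ± 16.6 CPM in L2-3 and 371 ± 40.8 in RT. Pcdhgc5 gave 46.9% of the gamma total in L2-3, 20.3% in RT and 15.6% in MHb. The other 20 gamma genes together were highest in MEN, 595 ± 58.6 CPM, and DG, 543 ± 20.1 CPM, and 8 of the 21 gamma genes had their highest single level in MEN. Over all genes tested 8.89% were highest in MEN. The beta genes summed to 322, 310, 320 and 320 CPM in DG, followed by 283 ± 25.4 in CA1, and were lowest in ChP at 106 ± 22.7. The DG sums were close to each other, and CA1 was below DG in MF1, HF1 and HF2 but not in MF2, where it reached 321. The alpha genes were highest in L4, 223 ± 22.2 CPM, and L2-3, with 215 CPM, against 114 in WM and 64.7 ± 23.2 in ChP. ChP was the lowest area for 32 of the 52 clustered genes, 11 alpha, 17 beta and 4 gamma, a larger share than the 31.3% over all genes. DG was the highest area for 16 of these 52, also a larger share than the 15.9% over all genes. ChP and DG were the smallest areas.

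**Figure D4:**
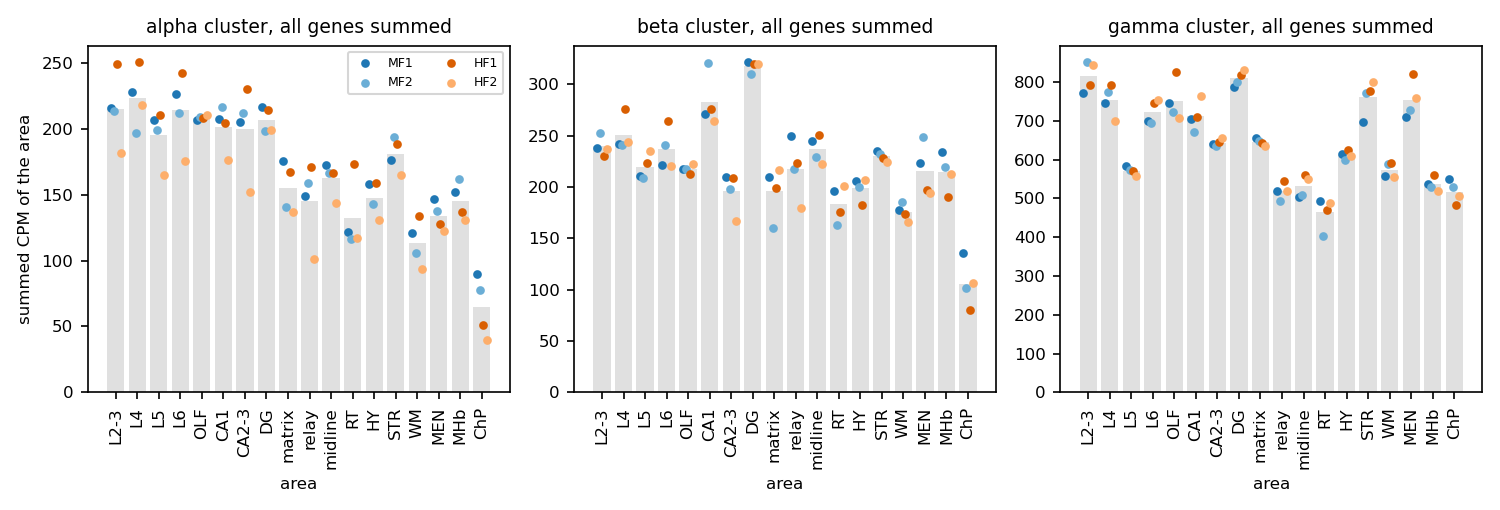
Summed level in CPM (vertical axes, from 0) of the alpha, beta and gamma protocadherin clusters in each of the 18 areas; bars are the means of 4 sections and points the sections. The gamma sum is highest in L2-3 and DG, the beta sum in DG and the alpha sum in L4, and the alpha and beta sums are lowest in ChP.

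Genes that work with cadherins were followed as lists. Over all genes tested, 39.6% were at least 2-fold higher in 1 or more areas and 22.2% marked an area. In ChP alone 15.7% of all genes were at least 2-fold higher. Of 15 tested catenins and their partners, 9 were at least 2-fold higher in some area and 4 marked one, Ctnna1 in ChP, Vcl in MEN, Ptk2 in L6 and Wasf1 in CA1. Of 16 other members of the cadherin superfamily 10 marked an area, 5 of them ChP (Fat1, Cdhr3, Cdhr4, Celsr1 and Dsg2), and Fat4, Celsr3 and Cdhr1 marked DG, Clstn2 CA2-3 and Dchs2 STR. None of the 14 tested regulators of the clusters, which include the CTCF and cohesin genes that shape promoter choice, was 2-fold higher in any area. RefSeq promoter windows of the same length were at hand for 21 members (24 windows, all outside the clusters) and 27025 genes. The letters CCAAT, on either strand, were in 66.7% of the members' windows and 37.4% of all 32851 windows, GGGCGG in 33.3% and 35.7%, and TATAAA in 8.33% and 13.6%. The members' windows had a median of 59.8% G and C and 16 CpG pairs, against 52.7% and 7. A letter match says nothing about binding in these samples.

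The second question was whether maternal folic acid moved these genes. Over the whole section 0 of 88 members tested passed an adjusted p of 0.05 with a 1.2-fold change, against 0% of the 14971 genes tested (edgeR quasi-likelihood test, Benjamini-Hochberg). DESeq2 called 23 genes and 0 members. At an unadjusted p under 0.05 there were 7 members (7.95%) and 6.81% of all genes, and the HF and MF values did not overlap for 35 members (39.8%) and 39.6% of all genes. The 7 members were Cdh3, Pcdh20, Pcdhga9, Cdh24 and Cdh11, higher in HF, and Pcdhb14 and Pcdhgb2, lower. The share of members was close to that of other genes by each measure. An exact permutation test of 2 against 2 sections cannot reach 0.05. Of the 88 log2 differences HF minus MF, 50 were positive and 38 negative, with a median of 0.04 against 0.0020 over all genes. The count of 0 depended on the HF sections: without HF1 10 members were called (11.4%, against 7.68% of all genes), 3 higher and 7 lower, and without HF2 9 (10.2%, against 5.55%), 5 higher and 4 lower, while it stayed at 0 without MF1 or without MF2. These fits assume that the lone HF section varies like the MF sections. Pcdh20 was the 1 member called both without HF1 and without HF2.

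**Figure D5:**
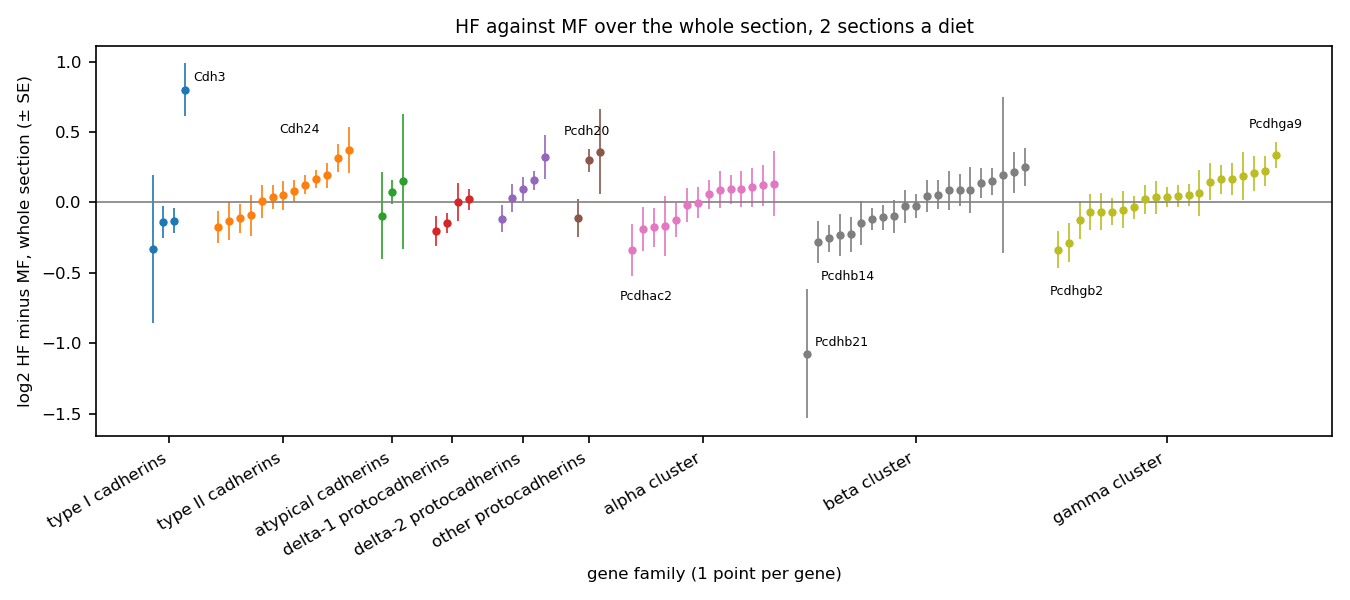
Log2 difference HF minus MF over the whole section (vertical axis) with its SE for each tested member (points), grouped by family along the horizontal axis; the horizontal line is 0. No member passed the adjusted p, and the named values run from -1.08 for Pcdhb21 to 0.80 for Cdh3.

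Pcdh20, the hippocampal protocadherin described above, was at 36.5 CPM in MF1, 40.2 in MF2, 47.8 in HF1 and 47.1 in HF2. Both HF sections were above both MF sections, by 0.30 ± 0.08 on the log2 scale (SE; adjusted p = 0.696 in edgeR). In the hippocampus it was at 114, 141, 158 and 181 CPM, also without overlap (log2 difference 0.45, adjusted p = 0.225). In CA2-3, where it was highest relative to other areas, the values of 164, 186, 244 and 249 CPM gave 0.53 ± 0.15 (adjusted p = 0.0665). Among 21 regions and areas in which it was tested, which overlap in spots, the difference was positive in 18. None of these passed the adjusted threshold.

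Cdh3 was at 1.66, 1.60, 3.20 and 2.56 CPM over the whole section, higher in both HF sections (log2 difference 0.80 ± 0.19, SE; adjusted p = 0.696 in edgeR). The choroid plexus markers moved the same way. Of 13 markers tested 12 had positive differences, with a median of 0.48, 8 at an unadjusted p under 0.05, and summed to 2940, 2780, 3917 and 4340 CPM. Within ChP spots Cdh3 had a log2 difference of 0.67 (adjusted p = 0.384) and in MHb 0.96 (adjusted p = 0.480). The combined spots of choroid plexus and medial habenula are called the ventricular spots below. Cdh3 was at 22.7, 29.3, 42.8 and 59.4 CPM in them (1.03, adjusted p = 0.251). The marker sums there were 35279, 44124, 52498 and 98590 CPM. Most of these spots were habenular, with 74 in MHb and 11 in ChP in MF1, and 36 and 13 in HF2. The part of the amount of choroid plexus in the whole-section value was not tested.

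Of the clustered genes, Pcdhga9 was higher in HF, at 17.5, 16.8, 21.2 and 22.4 CPM (log2 difference 0.34 ± 0.09, adjusted p = 0.696 in edgeR), and was so in 19 of 22 regions and areas. Pcdhgb2 was at 17.4, 14.2, 13.1 and 12.2 CPM (-0.33 ± 0.13, adjusted p = 0.716), and Pcdhb14 at 14.8, 15.6, 12.9 and 12.7 (-0.25 ± 0.10, adjusted p = 0.704). Both HF values lay below both MF values for each of these. Pcdhb21 had the lowest difference, -1.08 ± 0.46 (adjusted p = 0.722), from 39, 19, 11 and 5 UMIs. Pcdhac2, the C-type alpha gene known from serotonergic axon tiling, was at 35.6, 30.9, 32.0 and 21.2 CPM (-0.34 ± 0.19, adjusted p = 0.741). HF1 lay between the MF sections, so the groups overlapped. In L2-3 they did not, with 56.1, 50.6, 34.7 and 33.5 CPM (-0.66 ± 0.17, adjusted p = 0.141), and its difference was negative in 20 of 21 regions and areas. The summed clusters were at 176, 165, 180 and 151 CPM for alpha, 221, 216, 216 and 214 for beta and 627, 628, 644 and 641 for gamma, so that any change of a whole cluster was small beside its level.

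Members with well known roles gave these values. Pcdh10, which takes part in synapse elimination, was at 204, 202, 227 and 228 CPM (log2 difference 0.16 ± 0.07, adjusted p = 0.722 in edgeR) and in STR at 251, 235, 339 and 304 (0.39, adjusted p = 0.629). HF was above MF without overlap in both. Pcdh9 was at 220, 202, 170 and 199 CPM (-0.20 ± 0.11, adjusted p = 0.734). Its difference was negative in all 22 regions and areas tested, without overlap in 14, and passed the adjusted threshold in none. Cdh2 was at 114, 115, 114 and 97.1 CPM (-0.13 ± 0.09, adjusted p = 0.777 in edgeR), where HF2 alone was low over the whole section. By region and area the difference of Cdh2 was negative in 19 of 22 and positive in 3. HF lay below MF without overlap in 8 of them, and none passed the adjusted threshold. Cdh19 was at 16.8, 17.0, 14.0 and 16.2 CPM (-0.17 ± 0.11, adjusted p = 0.762). All 15 oligodendrocyte markers were negative as well, with a median of -0.33, 10 at an unadjusted p under 0.05, and sums of 26834, 28019, 22165 and 23867 CPM. Within WM, Cdh19 went the other way by 0.15, with both HF sections above both MF sections, and the part of the amount of myelinated tissue in the whole-section value was not tested. Pcdh19 (-0.11), Pcdh8 (0.03) and Cdh5 (0.01) hardly differed, and the sign for Pcdh8 and Cdh5 turned with spots thinned to 5000 UMIs, to -0.01 and -0.13.

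By family, the median log2 difference over the whole section was 0.05 for type II cadherins (9 of 13 positive), -0.13 for type I (1 of 4), 0.07 for atypical cadherins (2 of 3), 0.10 for delta-2 (4 of 5) and -0.07 for delta-1 (2 of 4). It was 0.03 for alpha (7 of 14), -0.03 for beta (10 of 21) and 0.04 for gamma genes (13 of 21). Of the 16 catenins and partners 12 were positive, of 18 other cadherin superfamily members 13 and of 15 cluster regulators 8, and 0 of each passed the test.

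Region by region, 0 members were called in any of 7 regions or 15 further areas. The share of all genes called was 0.0591% in cortex, 0.242% in hippocampus, 0.0612% in STR, 0.0555% in WM, 0.00857% in the ventricular spots 0% in thalamus and HY, and 0.41% in CA2-3, 0.36% in L2-3, 0.281% in L4, 0.144% in ChP, 0.124% in DG, 0.117% in OLF, 0.103% in the hippocampal matrix, 0.092% in L5, 0.078% in L6, 0.0715% in MHb, 0.0657% in RT, 0.0466% in midline thalamus, 0.0465% in CA1, 0.0396% in relay thalamus and 0% in MEN. The values nearest to the threshold, picked after all were seen, were Cdh8 in L2-3, Pcdhb19 in DG and Pcdh20 in CA2-3. Pcdh20 was given above (adjusted p = 0.0665 in edgeR). Cdh8 in L2-3 was at 61.6 CPM in MF1, 69.1 in MF2, 97.5 in HF1 and 96.7 in HF2. Both HF sections were higher, by 0.60 ± 0.14 on the log2 scale (adjusted p = 0.0606 in edgeR). Pcdhb19, a beta gene, was at 25.6, 31.5, 7.85 and 4.01 CPM in DG. It was lower in both HF sections, by -2.26 ± 0.53 (adjusted p = 0.0653), in an area of 18 to 34 spots per section. Its HF values in DG rest on fewer UMIs than those of Pcdhb4 there, which were few. In L2-3 Pcdhb19 went the other way, at 9.81, 8.64, 19.7 and 13.6 CPM (0.76). Its difference was negative in 13 of 17 regions and areas. Whether HF minus MF differed between cortex, hippocampus, thalamus, hypothalamus and striatum was tested over 14053 genes, of which 4 (0.0285%) and 0 of 84 members passed. Cdh22 had the smallest p among the members (adjusted p = 0.517). At an unadjusted p under 0.05 there were 4 of 84 members, against 6.84% of all genes.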

How the data were processed

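RNA of 4 sections, 2 per diet, was measured with Visium for formalin-fixed tissue. The authors mapped probe reads to mm10 with Space Ranger (2.0.0 per the file headers) and deposited raw UMI counts for 19465 features per spot. They also deposited a table with a Moran's I score and total counts per feature and section, of which the score was used and the totals were checked against the counts. Sections were grouped by their labels.

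Spots with at least 500 UMIs and 250 genes were kept. Counts were scaled and 2000 variable genes without cadherins, protocadherins, mitochondrial genes, Xist and Tsix were clustered (30 principal components, 20 neighbours, leidenalg 0.10.2 at resolution 1, scikit-learn 1.9.0, Python 3.11.15). A cluster was named when at least 3 markers of a class were among its 50 leading genes; other spots were left out of the areas. UMIs were summed per section and area and tested with edgeR 4.0.16 (TMM, filterByExpr, quasi-likelihood F test, R 4.3.3) and Benjamini-Hochberg adjustment over all genes. Areas were compared with section as a block, and HF with MF within each area. DESeq2 1.42.0, other filters, scaling and clustering, thinning to 5000 UMIs, interior spots, a replicate block and left-out sections were tried as alternatives. The tests were checked on simulated data. Coordinates come from GENCODE vM21, which matched all 90 members, and promoters from RefSeq.

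Named for areas were up to 4 members with the largest ratio among those that marked an area. Named for diet were any member called, the 3 with the smallest p in each direction over the whole section, and Cdh5, Cdh19, Pcdhac2, Cdh2, Pcdh8, Pcdh19, Pcdh9 and Pcdh10. Other members named were chosen after their values were seen. The members, marker lists and gene lists were chosen with earlier results of these data known. The number of sections limits the precision.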

Additional observations from a re-analysis of the deposited data

Results flagged for a closer look

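Cdh12 in L4 was at 46.8 CPM in HF2 while the other 3 sections lay between 65.2 and 66.6 CPM, a gap of 0.93 of the whole range. It was flagged among many values, and how often chance gives such a gap was not tested. For 6 of the 14 named members the HF sections lay above the MF sections in some area and below them in another, without overlap in either, out of 22 regions and areas compared. The same held for 55 of 85 members (64.7%) and for 61.3% of the 14024 genes tested in at least 1 of them, so the pattern was common. None of these differences between areas was tested. For Pcdh20 the log2 difference HF minus MF was 0.53 in CA2-3 and -0.40 in MEN, 0.93 apart. For Pcdhga9 it was 1.04 in midline thalamus and -1.37 in ChP, 2.40 apart. For Cdh19 it was 0.15 in WM and -0.77 in MHb, 0.92 apart. For Pcdh8 it was 0.37 in L6 and -0.19 in CA1, 0.56 apart. For Pcdh19 it was 0.43 in CA1 and -0.45 in WM, 0.87 apart. For Pcdh10 it was 0.52 in RT and -0.33 in ChP, 0.85 apart.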

How the results depend on the processing

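The 12 marks of areas were all kept without the filter on low counts, with library size alone, with DESeq2 and without any 1 section, and the number of marking members ranged from 13 to 19 over the left-out sections, 19 without HF replicate 1. With spots thinned to 5000 UMIs 7 members marked an area, and 5 of the 12 marks were kept; Cdh5, Cdh18, Cdh19, Cdh20, Cdh24, Pcdh19 and Pcdhb4 no longer marked theirs. With members left in the clustering, which gave no ChP area, 10 of the 12 marked the same area. At Leiden resolution 0.5, which gave no DG area, it was 5. With interior spots, which left 10 areas without ChP, MEN or hippocampal areas, it was 4. Cdh3 marked MHb under these 3 settings, and Pcdh8 marked ChP at resolution 0.5. Cdh3 could not mark ChP with members left in the clustering or with interior spots, where that area was absent. The ChP area at resolution 0.5 was not that of the main clustering: 80 members had enough counts there for the diet test, against 20. With interior spots 17 members were at least 2-fold higher in some area. The cause was not tested.

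For HF against MF the count of members called was 0 under most alternatives. Without the filter on low counts it was 1 in hippocampus (Pcdh20), 1 in the ventricular spots (Cdh3), 1 in DG (Pcdhb19) and 1 in L2-3 (Cdh8). These were 1.12%, 1.12%, 1.15% and 1.14% of the members tested, against 1.03%, 0.877%, 0.158% and 0.572% of all genes. With interior spots it was 1 in L2-3 (1.33%, against 0.407% of all genes). Same-numbered MF and HF sections deviated with r = -0.20 over 14971 genes, and the labels give them only a number in common. With the replicate number as a block, 0 members were called over the whole section, 1 in the ventricular spots (Cdh3), 1 in DG and 1 in L2-3. In these 3 the shares were 1.35%, 1.89% and 1.28% of members, against 1.05%, 0.18% and 0.513% of all genes. A replicate block with crossed pairing, chosen after seeing the data, called 0 over the whole section, 1 in hippocampus, 1 in DG and 1 in L2-3. Here the shares were 1.22%, 1.89% and 1.28% of members, against 1.04%, 0.213% and 0.801% of all genes. With 1 section left out, members were called in several regions and areas and in the region by diet test, mostly without an HF section. In each such region or area the share of all genes called rose as well, so these calls were not particular to the members. The sign turned for Cdh5 (-0.13) and Pcdh8 (-0.015) with spots thinned, and their differences ranged from -0.12 to 0.13 and from -0.086 to 0.14 over the left-out sections, negative without MF replicate 1 and without HF replicate 1. The cause was not tested. Areas of few spots (ChP, DG, CA1 and CA2-3) and members of few UMIs left the least precision.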
